A study of Mus musculus with 2 samples.

Results

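The regions described here are accessible peaks that lie within 1 kb of a gene's deposited interval and overlap a peak of the other library by at least 1 base. They comprised 22614 of the 83851 peak rows of the control library (27.0%) and 22597 of the 85738 peak rows of the knockout library (26.4%). Joining overlapping rows gave 22581 regions, of which 22420 held 1 peak from each library, and these lay nearest to 14691 genes. Another 1896 control rows and 2196 knockout rows lay within 1 kb of a gene but met no peak of the other library. The regions are called promoter regions below, with one reservation. The deposited interval of a gene runs from its first to its last transcript start, with a median length of 1 base, but 5361 of 32285 genes have intervals over 1 kb and the longest spans 2857160 bases. Against the GENCODE annotation of the same build, mouse GRCm38 (mm10), 62.7% of the regions covered an annotated transcript start and 77.5% lay within 1 kb of one. The remaining 5071 regions (22.5%) lay between the starts of a long interval, and are named as such wherever they appear, because their values stood apart from those of regions at a start.

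RNA and open chromatin were read from the same nuclei with the 10x Multiome assay, in which a transposase marks accessible DNA. The nuclei came from effector CD4 T cells of colon and small intestine, pooled, of mice 26 to 33 weeks old, sorted as CD4+CD44+CD62L- cells without CD8a, CD11c, CD45R and F4/80. Zfp362flox/flox mice, which carry the floxed alleles without Cre, gave the control library. The knockout library came from CD4creZfp362flox/flox mice, in which the Cd4 promoter drives Cre and Zfp362, a zinc finger gene, is the target. Each genotype had 1 library of pooled mice. The series' design text names 7 mice without saying whether that number is for each genotype. With 1 library per genotype no test between genotypes is possible, so values are given with 95% intervals that cover counting error only, and a region or gene was called where it differed by 2-fold or more. Molecules of the same nucleus and nuclei of the same pool are not independent, and these intervals do not cover that.

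Within each library, nuclei with 2 or more RNA molecules (UMIs) of Cd3d, Cd3e and Cd3g together were Cd3-positive, and nuclei with no UMI of those genes or of Trac were Cd3-negative. The Cd3 genes encode the signalling chains of the T cell receptor complex. A promoter is the stretch around a transcript start where RNA polymerase and its initiation factors assemble, and it is usually free of nucleosomes in cells that can use it. Promoters of genes used in most cells tend to be rich in CpG dinucleotides and open in nearly every cell type, while many promoters of lineage genes are CpG-poor and open only in that lineage. An open promoter is compatible with strong, weak or no transcription, so accessibility and RNA need not move together.

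The sequences of 6 promoters are shown first, 3 from the regions most open in Cd3-positive nuclei and 3 from those most open in Cd3-negative nuclei, as examples of the ranked regions described below, picked after their values were seen. Each run is the 200 bases before the transcript start, on the gene's strand, from RefSeq on GRCm38.p6, with CpG dinucleotides in capitals. Themis encodes a signalling adaptor of T cells (chr10:28668160-28668359, plus strand), Slamf1 a self-binding receptor of lymphocytes (chr1:171766932-171767131, plus strand) and Ctla4 an inhibitory receptor of T cells (chr1:60908825-60909024, plus strand). Agap1 encodes a GTPase-activating protein for ARF (chr1:89454611-89454810, plus strand), Ptprm a receptor tyrosine phosphatase (chr17:67354460-67354659, minus strand) and Zfhx3 a zinc finger homeobox factor (chr8:108714444-108714643, plus strand).
Themis: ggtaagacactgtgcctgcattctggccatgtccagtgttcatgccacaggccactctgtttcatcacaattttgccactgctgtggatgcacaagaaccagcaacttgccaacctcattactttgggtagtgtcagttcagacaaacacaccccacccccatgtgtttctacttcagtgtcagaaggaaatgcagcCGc
Slamf1: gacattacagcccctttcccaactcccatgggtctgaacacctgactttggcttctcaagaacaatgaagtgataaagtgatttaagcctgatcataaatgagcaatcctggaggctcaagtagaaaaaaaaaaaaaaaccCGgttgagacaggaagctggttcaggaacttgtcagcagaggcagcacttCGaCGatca
Ctla4: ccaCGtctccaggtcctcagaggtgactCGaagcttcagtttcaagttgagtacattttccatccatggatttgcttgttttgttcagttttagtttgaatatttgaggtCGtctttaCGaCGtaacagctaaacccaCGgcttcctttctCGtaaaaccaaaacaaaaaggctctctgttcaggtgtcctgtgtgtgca
Agap1: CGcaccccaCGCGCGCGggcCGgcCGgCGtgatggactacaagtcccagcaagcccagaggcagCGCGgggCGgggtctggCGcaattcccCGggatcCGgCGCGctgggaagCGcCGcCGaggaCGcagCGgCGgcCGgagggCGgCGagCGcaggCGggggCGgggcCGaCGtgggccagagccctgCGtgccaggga
Ptprm: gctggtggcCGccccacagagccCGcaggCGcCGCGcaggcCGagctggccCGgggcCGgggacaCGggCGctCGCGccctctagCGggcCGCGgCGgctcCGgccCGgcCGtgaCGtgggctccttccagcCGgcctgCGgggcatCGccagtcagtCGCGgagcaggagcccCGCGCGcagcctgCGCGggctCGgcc
Zfhx3: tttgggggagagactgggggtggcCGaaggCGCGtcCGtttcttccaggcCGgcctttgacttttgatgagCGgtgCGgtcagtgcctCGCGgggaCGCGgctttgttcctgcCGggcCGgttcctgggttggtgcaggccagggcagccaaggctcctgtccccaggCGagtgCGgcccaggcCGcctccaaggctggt
The 3 promoters opened in Cd3-positive nuclei held 1 (Themis), 3 (Slamf1) and 7 (Ctla4) CpG dinucleotides, and the 3 opened in Cd3-negative nuclei held 31 (Agap1), 31 (Ptprm) and 16 (Zfhx3). Other promoters of the same ranked regions kept to this split only in part. Ky, among the most open in Cd3-positive nuclei, held 26, and Cryaa, among the most open in Cd3-negative nuclei, held 5. Acp5, among the most open in Cd3-positive nuclei, held 4 and kept to it. The counts describe these promoters and no group: only 57.6% of the 14345 measured promoter regions (8263) overlapped a window of the RefSeq table, so a comparison of base composition between groups of regions is void. Across all 32851 RefSeq windows, which run from 250 bases before to 50 after a start, the median was 2.33 CpG per 100 bases. In windows of that length, 11 short motifs were searched on both strands. The letters GGGCGG, bound by SP and KLF factors, occurred in the Agap1 and Ptprm windows and in 35.7% of all windows. The cyclic AMP response letters TGACGT occurred in the Ptprm window and in 7.51% of all windows. The TCF1 letters CTTTGA occurred in the Ctla4 and Zfhx3 windows and in 16.0% of all, the TATA box TATAAA in the Ctla4 window and in 13.6%, and the E box CAGCTG in the Slamf1 window and in 16.3%. The other motifs were in none of the 6 windows: CCGGAA of ETS factors (14.9% of all windows), CCAAT of NFY (37.4%), TGTGGT of RUNX (16.8%), AGGTCA of nuclear receptors (16.3%), TGANTCA of AP-1 (7.81%) and AGATAA of GATA factors (11.2%). No motif was found in the Themis window. Of all the windows, 22994 were not at shared promoter regions, so the shares above are no background for open promoters. The 8263 windows of measured promoter regions had a median of 7.33 CpG per 100 bases. Of the motifs found in the 6 windows, GGGCGG occurred in 69.8% of these 8263, TGACGT in 13.0% and CTTTGA in 11.5%. TATAAA occurred in 6.09% and CAGCTG in 13.9%.

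After removal of nuclei with under 1000 UMIs, under 300 genes or over 10% mitochondrial UMIs, 4032 of 4223 control nuclei and 2264 of 2391 knockout nuclei remained. The Cd3-positive population held 1748 control and 1011 knockout nuclei, and the Cd3-negative population 1293 and 725, while 991 control and 528 knockout nuclei were in neither. Median UMIs per nucleus were 2357 and 3591 in Cd3-positive nuclei and 1908 and 2001 in Cd3-negative nuclei, control first. Median peak counts per nucleus were 6741.5 and 10714 in Cd3-positive and 7213 and 10175 in Cd3-negative nuclei. The knockout library was thus the deeper one, and 11 barcodes occurred in both libraries. The 12 T cell markers summed to 5664 and 4964 RNA counts per 1000000 UMIs (CPM) in Cd3-positive nuclei and to 920 and 962 CPM in Cd3-negative nuclei, so the Cd3-negative nuclei were not free of T cell transcripts. Part of that gap comes from the 4 marker genes that defined the populations. The 9 markers of innate lymphoid cells (ILC), lymphocytes without antigen receptors, summed to 1497 and 1558 CPM in Cd3-positive and to 3437 and 3355 CPM in Cd3-negative nuclei. B cell markers summed to at most 38.4 CPM, epithelial markers to at most 82.0 CPM and stromal or endothelial markers to at most 179 CPM, nearly all of it Pecam1. Myeloid markers reached 481 and 492 CPM in Cd3-negative nuclei against 129 and 150 CPM in Cd3-positive nuclei, but 1 of the 7 genes, Zbtb46, made up 465 and 465 CPM and 123 and 144 CPM of these sums, and none of the others passed 9.74 CPM in any population. The part of these other cells in the promoter ratios was not tested.

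Promoter regions made up 30.8% of the shared regions but held most of the peak counts. They took 63.7% of all peak counts in Cd3-positive and 62.0% in Cd3-negative nuclei of the control library. In the knockout library the shares were 63.1% and 61.4%. Counted as fragments, on which the intervals rest, the control shares were 63.64% (63.61 to 63.68) and 62.04% (62.00 to 62.09), and the knockout shares 63.06% (63.03 to 63.08) and 61.46% (61.41 to 61.51). The share was therefore higher in Cd3-positive nuclei in both libraries, by 1.69 percentage points in control and 1.71 in knockout, and the intervals of the populations did not overlap. The size of this gap depended on how the nuclei were split, from 1.33 points where Trac was ignored to 2.80 in control and 2.49 in knockout where clusters replaced the marker rule. Single nuclei spread far wider than the gap. The median nucleus had 64.2% and 63.4% in Cd3-positive and 62.5% and 61.7% in Cd3-negative nuclei, control first, and the middle 80% of control Cd3-positive nuclei ran from 60.2 to 68.3%.

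**Figure D1:**
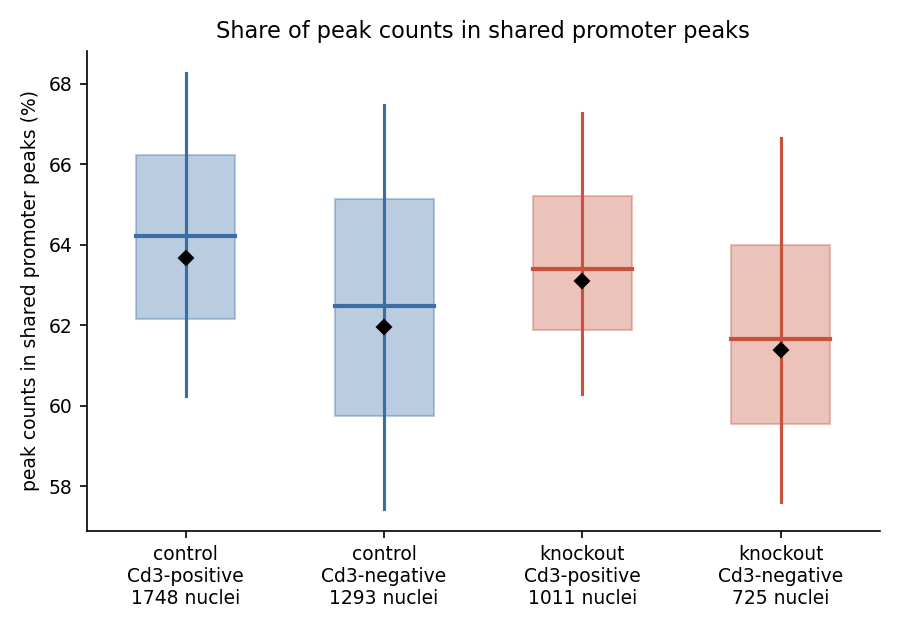
Share of peak counts (%) in shared promoter peaks for the 2 populations of each library; boxes span the quartiles over nuclei, the line in each box is the median, whiskers run from the 10th to the 90th percentile, and diamonds are the pooled shares. The diamonds lie at 63.7 and 62.0% in control and at 63.1 and 61.4% in knockout, within broadly overlapping boxes. The axis does not start at 0.

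The counts were spread unevenly over promoters. The strongest 10% of the regions took 35.6% of the promoter counts in control Cd3-positive nuclei and 33.9% in control Cd3-negative nuclei, against 35.5% and 33.8% in knockout. The regions within 1 kb of an annotated start alone took 60.0% and 58.1% of all peak counts in control and 59.4% and 57.6% in knockout. The regions between starts took 3.69% in Cd3-positive and 3.82% in Cd3-negative control nuclei, and 3.67% and 3.79% in knockout nuclei. Their part of the counts was therefore slightly lower in Cd3-positive nuclei, the opposite of the regions at starts. Shared peaks over 1 kb from every gene interval, called distal here, took 34.5% and 36.1% in control and 34.8% and 36.3% in knockout.

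To compare populations region by region, each region's counts were divided by all counts in shared regions of the same nuclei (peak CPM), and the log2 ratio of Cd3-positive to Cd3-negative nuclei was taken in each library. A region was measured where each library gave at least 100 fragments over both populations, which held for 14345 of the 22581 regions (63.5%). Of these, 426 (2.97%) were 2-fold or more higher in Cd3-positive nuclei in both libraries and 554 (3.86%) were 2-fold or more lower. Over all 26794 measured shared regions, distal ones included, 6.86% were higher and 7.85% lower, so promoter regions passed 2-fold less often than the background. Within 1 kb of an annotated start the shares were 1.76% and 2.90% of 12935 regions, while between starts they were 14.0% and 12.7% of 1410 regions, against 11.3% and 12.4% of 12449 distal regions. By this measure, which was not matched for fragments, the regions between starts resembled distal regions and not promoters. The 2 libraries ranked the measured regions much alike, with a Spearman correlation of 0.75 across regions, which share the nuclei of each library. Leaving out nuclei with over 2 times the median UMIs lowered the counts to 110 higher and 318 lower, while clusters in place of the marker rule raised them to 724 and 834.

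The promoter regions that differed were mostly weak ones. Among regions with 100 to 200 fragments in the smaller library, 8.23% were higher and 12% lower. For those within 1 kb of an annotated start the shares were 5.77% and 10.5%. From 200 to 500 fragments the shares were 2.91% and 3.06%, and from 500 to 1000 they were 0.244% and 0.111%. None of the 1766 regions with more than 1000 fragments passed 2-fold in either direction. Counting error is also largest in the weak regions, and the requirement of 2-fold in both libraries lowers but does not remove its part. The 10th and 90th percentiles of the control ratio narrowed from -1.43 and 1.07 in the weakest group to -0.08 and 0.28 in the strongest.

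Regions were ranked with 1 region a gene, the one with the most fragments, among genes with enough UMIs. The 8 most open in Cd3-positive nuclei belonged to T cell genes, to genes better known in other tissues and to uncharacterised transcripts. The Themis region (chr10:28667876-28668884) held 16.7 peak CPM in Cd3-positive and 2.33 in Cd3-negative control nuclei, and 12.5 and 1.98 in knockout nuclei. The log2 ratio of the region was 2.81 (1.94 to 3.96) in control and 2.61 (1.61 to 4.04) in knockout, and the RNA of Themis had ratios of 2.21 and 2.00. The Ctla4 region (chr1:60908556-60909477) held 24.5 and 4.88 peak CPM in control and 18.6 and 3.96 in knockout, with ratios of 2.31 (1.71 to 3.08) and 2.20 (1.39 to 3.01) beside RNA ratios of 2.10 and 2.08. For both genes the Cd3-positive values lay above the Cd3-negative values in both libraries, and the promoter and RNA ratios were of like size. The Slamf1 region (chr1:171766619-171767577) held 18.3 and 3.6 peak CPM in control and 11.6 and 2.26 in knockout, and its ratios of 2.33 and 2.32 stood beside RNA ratios of 1.98 and 1.76. The region of Acp5, an acid phosphatase gene, had ratios of 2.34 and 2.10 with RNA ratios of 2.67 and 2.16. Ky, known for its part in muscle, had region ratios of 2.39 and 2.19 and RNA ratios of 2.97 and 2.70. The unnamed transcripts BE692007, Gm43057 and Gm49180 completed the 8 highest, with region ratios between 2.13 and 3.01. The files do not say whether reads of such transcripts were kept apart by strand from overlapping genes, so their RNA is uncertain.

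Of the 8 regions lowest in Cd3-positive nuclei in this ranking, each had RNA that was also lower, by about the same amount. The Agap1 region (chr1:89454299-89455468) held 7.36 peak CPM in Cd3-positive and 38.4 in Cd3-negative control nuclei, and 9.26 and 39.8 in knockout nuclei. Its ratios were -2.38 (-2.85 to -1.95) and -2.10 (-2.48 to -1.71), against -2.46 and -2.17 for the RNA. The Cd3-negative value was more than 4 times the Cd3-positive value in both libraries. Bmp2, a secreted bone morphogenetic protein, had region ratios of -2.49 and -2.22 and RNA ratios of -2.49 and -2.19. Eya1, a transcriptional coactivator with phosphatase activity, had -2.46 and -2.04 for its region and -2.32 and -1.96 for its RNA. The Zfhx3 region (chr8:108714404-108715484) had -2.13 and -2.10 with RNA at -2.15 and -2.27, and the Ptprm region (chr17:67354177-67355147) -2.01 and -2.15 with RNA at -2.50 and -2.11. Cryaa, a lens crystallin, had region ratios of -2.54 and -2.05 with RNA at -2.54 and -1.97, and Unc5c, a netrin receptor, -2.29 and -2.08 with RNA at -2.04 and -1.96. The eighth, Plb1, a phospholipase, was represented by a region between starts, with ratios of -2.57 and -2.31 and RNA at -2.54 and -1.83.

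The Cd3 genes chose the nuclei by their RNA, so their RNA ratios say nothing, but their peak counts were not used. The Cd3e region at its start (chr9:45009025-45009948) held 34.2 peak CPM in Cd3-positive and 7.33 in Cd3-negative control nuclei, and 30.5 and 6.09 in knockout nuclei. Its ratios were 2.21 (1.73 to 2.84) in control and 2.31 (1.71 to 3.02) in knockout. The region of Cd3g (chr9:44979887-44980907), which lies near 2 genes, had ratios of 1.87 and 2.01. Nuclei chosen as Cd3-negative on RNA thus also had lower Cd3 promoter counts, though not zero.

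Region ratios followed the RNA ratio of the nearest gene in order, most clearly where the RNA differed strongly. RNA was usable for 8553 measured regions, those whose gene had at least 100 UMIs in each library and was not Cd3d, Cd3e, Cd3g or Trac, while 5790 measured regions had a gene with too few UMIs. Where RNA was at least 4-fold lower in Cd3-positive nuclei, the median region ratio was -1.25 in control (230 regions) and -1.14 in knockout (123 regions). Where RNA was at least 4-fold higher it was 1.00 (129 regions) and 1.13 (93 regions). In between the slope was shallow: RNA ratios of 1 to 2 went with median region ratios of 0.28 and 0.26, and RNA ratios of -2 to -1 with -0.29 and -0.38. For RNA ratios from -0.5 to 0.5, which took 5063 of the control regions, the median was 0.09. Sorting the control regions by the knockout library's RNA, and the reverse, gave end medians of -1.39 and 1.10 for control and -0.97 and 0.82 for knockout.

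**Figure D2:**
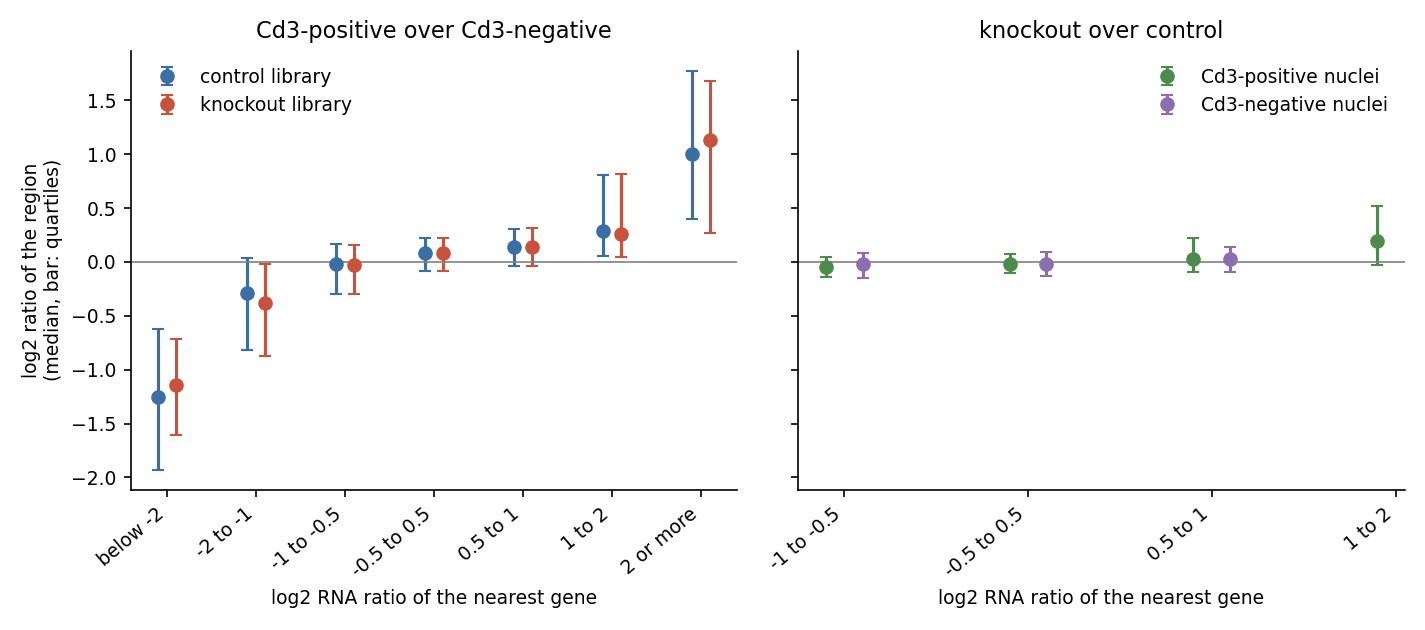
Median log2 ratio of promoter regions (points, with bars for the quartiles) by the log2 RNA ratio of the nearest gene, for Cd3-positive over Cd3-negative nuclei in each library (left) and for knockout over control in each population (right); groups of fewer than 20 regions are left out. On the left the medians run from -1.25 and -1.14 to 1.00 and 1.13, and on the right they lie between -0.04 and 0.20.

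Across the 8553 regions the Spearman correlation of region and RNA ratio was 0.35 in control and 0.34 in knockout, with Pearson correlations of 0.50 and 0.46. These describe regions whose RNA and peak counts come from the same nuclei, and regions of 1 gene share its RNA. Setting the control peaks against the knockout RNA gave 0.35, and the knockout peaks against the control RNA 0.34, so the relation was of the same size across libraries. It was 0.55 in control among regions of 100 to 200 fragments, 0.42 from 200 to 500, 0.21 from 500 to 1000 and 0.15 above 1000, with 0.53, 0.40, 0.20 and 0.15 in knockout. Regions between starts had 0.49 and 0.45, and regions within 1 kb of a start 0.32 and 0.32, without matching for strength. The weak regions within 1 kb of a start had 0.59 and 0.58 at 100 to 200 fragments, and 0.42 and 0.40 at 200 to 500. The lower value at starts thus did not hold for the weakest regions. Regions with 2 or more genes within 1 kb, where the nearest gene need not be the one served, had 0.22 and 0.23, against 0.37 and 0.36 for regions with 1 gene.

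**Figure D3:**
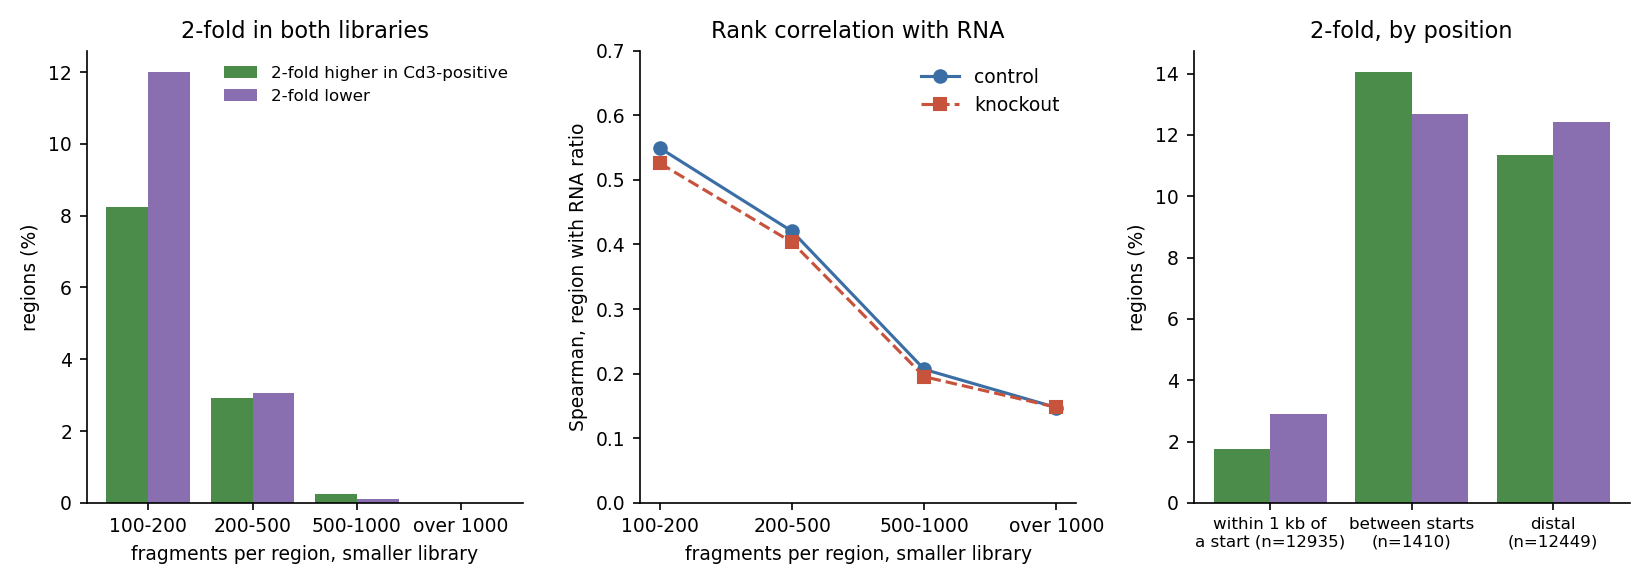
Left, share of promoter regions (%) that were 2-fold higher or lower in Cd3-positive nuclei in both libraries, by fragments per region in the smaller library; middle, Spearman correlation of region and RNA ratio in the same groups; right, the shares called by position. The shares run from 8.23 and 12% to 0, the correlation from 0.55 to 0.15 in control, and regions between starts (14.0 and 12.7%) lie near distal ones (11.3 and 12.4%).

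Seen from the RNA, 498 promoter regions had a gene whose RNA was 2-fold or more higher in Cd3-positive nuclei in both libraries. Of these, 391 had a region ratio above 0 in both libraries, 143 were themselves 2-fold higher and 53 were below 0 in both, with a median of 0.47. Another 563 regions had a gene whose RNA was 2-fold or more lower, of which 439 had a region ratio below 0 in both libraries, 159 were 2-fold lower and 75 were above 0 in both, with a median of -0.64. Over all 7117 genes with enough UMIs, 5.52% had RNA 2-fold higher and 6.28% lower. Most of these promoters thus lay on the same side of 0 as the RNA, while 143 of the 498 and 159 of the 563 were themselves 2-fold apart. With 1 region a gene, 5804 of 11392 genes had a region ratio above 0 in both libraries and 3229 below 0. The higher side therefore lay nearer its background than the lower side. Without the nuclei of over 2 times the median UMIs the medians were 0.22 and -0.38. Seen from the peaks, 285 regions were 2-fold higher and had usable RNA. Of these, 238 had higher RNA in both libraries and 40 had lower RNA in both, with a median RNA ratio of 1.10 in control. Of 283 regions 2-fold lower, 245 had lower RNA in both libraries and 23 had higher RNA, with a median of -1.47. The share of all regions with RNA on either side of 0 is not given, so the views from RNA and from peaks cannot be ranked. Among the 7985 other regions, 751 had a gene whose RNA differed 2-fold or more.

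The gene lists set promoter and RNA ratios side by side for kinds of genes. Each gene was represented by its promoter region with the most fragments, which gave 11392 genes with a measured region, of which 1.69% were 2-fold higher and 2.81% 2-fold lower in both libraries, with a median ratio of 0.08. Among 17 measured T cell identity genes, 6 were 2-fold higher at the promoter and none 2-fold lower, with a median of 0.59, while 12 were 2-fold higher in RNA with a median of 1.67. The promoter median was 0.27 without the nuclei of over 2 times the median UMIs and 0.91 with clusters. Besides Themis, the promoters 2-fold higher were those of Cd6, a receptor on T cells (2.00 and 2.20), Bcl11b, a factor that maintains T cell identity (1.75 and 2.08), Cd247, which encodes the CD3 zeta chain (1.77 and 2.05), Cd28, a co-stimulatory receptor (1.14 and 1.41), and Lck, a kinase of T cell receptor signalling (2.35 and 1.91), whose region lay between starts. The other members did not reach 2-fold at the promoter, although the RNA of several differed. Lat, an adaptor of T cell receptor signalling, held 34.5 and 32.1 peak CPM in control and 37.7 and 31.0 in knockout, with ratios of 0.10 and 0.28 beside RNA ratios of 1.88 and 1.62. Lef1, a transcription factor, had region ratios of 0.02 and 0.15 with RNA at 1.74 and 1.60, and Gata3, a T helper factor, had region ratios of -0.60 and -0.35 with RNA at 1.13 and 1.21. Tcf7, the gene of TCF1, was lower in Cd3-positive nuclei by both measures, at -0.34 and -0.30 for its region and -0.79 and -0.92 for its RNA.

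Among 15 measured ILC identity genes, 7 promoters were 2-fold lower in Cd3-positive nuclei, none was 2-fold higher and the median was -0.65, beside RNA that was 2-fold lower for 8 of 14 genes with a median of -1.57. The promoter median was -1.16 where regions had to lie within 100 bases of the gene interval. Kit, a receptor for stem cell factor, held 8.01 peak CPM in Cd3-positive and 31.9 in Cd3-negative control nuclei, and 10.8 and 37.8 in knockout, with ratios of -1.99 and -1.80 and RNA at -2.33 and -2.07. Zbtb16, the gene of the innate lymphocyte factor PLZF, had region ratios of -1.85 and -1.88, Cnr2, a cannabinoid receptor, -1.68 and -1.58, and Cxcr5, a chemokine receptor, -1.12 and -1.21. Il1r1, the interleukin-1 receptor, had -2.11 and -1.86 at a region between starts. Eya1 and Il23r were the other two. The rest were nearer 0: Il7r, the interleukin-7 receptor, had region ratios of 0.39 and 0.28 beside RNA at -0.85 and -0.77, and Lta, lymphotoxin alpha, 0.37 and 0.09 beside RNA at -1.93 and -1.81. Id2, a transcriptional regulator that ILC depend on, had region ratios of 0.17 and 0.13 with RNA at -0.36 and -0.22.

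The type 17 genes, which serve cytokine responses shared by Th17 cells and ILC3, split in both directions, with 5 of 13 promoters 2-fold lower, 1 higher and a median of 0.13. Il22, the cytokine gene, held 5.55 and 23.8 peak CPM in control and 7.32 and 26.9 in knockout, with ratios of -2.10 and -1.88 and RNA at -2.26 and -1.81. Il17f, another cytokine gene, had region ratios of -1.83 and -1.76, Il23r, the interleukin-23 receptor, -1.95 and -1.76, and Tmem176b, a membrane channel gene, -1.56 and -1.43. The one higher promoter was that of Il21r, the interleukin-21 receptor, at 1.39 and 1.39 with RNA at 2.12 and 2.06. The transcription factor genes of this list stayed under 2-fold at the promoter: Stat3 had 0.28 and 0.02, Maf 0.25 and 0.13, Batf 0.44 and 0.23 and Rora 0.21 and 0.13.

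The lists of other T cell programmes had higher RNA than promoter medians. Type 1 and cytotoxic genes had a promoter median of 0.29 and an RNA median of 1.54, with 4 of 14 promoters 2-fold higher. These were Ifng, the interferon gamma gene (1.58 and 1.75), Nkg7, a protein of cytotoxic granules (1.14 and 1.43), and, between starts, Gzmk, a granzyme (2.51 and 2.32), and Il12rb2, an interleukin-12 receptor chain (1.78 and 1.36). Regulatory T cell genes had a promoter median of 0.30 and an RNA median of 1.54, with 3 of 11 promoters 2-fold higher: Foxp3, the lineage factor, whose region lay between starts (1.97 and 2.25), Tnfrsf4, the gene of OX40 (2.27 and 2.03), and Ctla4. Co-stimulatory and co-inhibitory receptors had medians of 0.33 and 1.67, with Tigit, an inhibitory receptor, at 1.49 and 1.13. Lag3 and Havcr2, further inhibitory receptors, had region ratios of -0.23 and -0.37 and of -0.08 and -0.45 beside RNA ratios of 1.59 and 1.75 and of 2.00 and 2.30. The promoter medians of the type 1 and regulatory lists turned to -0.13 and -0.10 without the nuclei of over 2 times the median UMIs, and the regulatory median to -0.07 at a minimum of 2000 UMIs per nucleus, so their direction is not settled by these data.

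In the immediate early and MHC class II lists several genes were 2-fold apart in RNA, while no promoter was. Over all genes only 1.69% of promoters were 2-fold higher and 2.81% lower, so none among 16 and 6 genes is near that share. Strong promoters also passed 2-fold least often, with none of 1766 regions of more than 1000 fragments. The 16 immediate early genes, which cells switch on within minutes of a stimulus, had a promoter median of 0.04 with none 2-fold apart, while the RNA of 7 of 15 was 2-fold lower in Cd3-positive nuclei, with a median of -0.99. Jun, an AP-1 subunit, held 109 and 125 peak CPM in control and 114 and 122 in knockout, a ratio of -0.19 and -0.10, beside RNA ratios of -2.13 and -1.89. Fos had region ratios of 0.22 and 0.03 with RNA at -1.61 and -1.42, and Egr1, a zinc finger factor, 0.19 and 0.27 with RNA at -1.82 and -1.54. Atf3, a factor of the stress response, was the furthest apart at -0.60 and -0.55, with RNA at -2.06 and -1.67. The 6 MHC class II genes, which present antigen, had a promoter median of -0.18 with none 2-fold apart, while the RNA of 4 of 5 was 2-fold lower, with a median of -2.34. H2-Aa, an MHC class II alpha chain, had region ratios of -0.33 and -0.21 with RNA at -2.51 and -2.33, and H2-Eb1, a beta chain, -0.93 and -0.32 with RNA at -2.41 and -2.38. Cd74, the invariant chain that accompanies class II molecules, had region ratios of -0.46 (-0.76 to -0.15) and -0.71 (-1.02 to -0.41), lower in both libraries, with RNA at -2.06 and -2.23. Of the myeloid markers, Zbtb46 was higher in Cd3-negative nuclei (465 and 465 CPM, against 123 and 144 CPM in Cd3-positive nuclei). Flt3 (5.85 and 9.74 against 1.04 and 0.65 CPM) and Adgre1 (6.22 and 7.31 against 1.21 and 0.65 CPM) were also higher there, on few UMIs. Lyz2, Csf1r, Itgax and Cd68 were at most 6.70 CPM in every population. The sort had removed cells with CD11c or F4/80. The part of any such cells in the class II RNA was not tested.

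The remaining lists had promoter medians near the 0.08 of all genes, while their RNA medians ran from -0.43 to 0.49, where the median of all genes was 0.11. Interferon response genes had medians of 0.13 for the promoter and 0.49 for the RNA, NF-kB genes -0.04 and -0.43, proteasome genes 0.09 and 0.21, cytosolic ribosome genes 0.13 and 0.21, and RNA polymerase II core genes 0.13 and -0.15. No promoter of these 5 lists was 2-fold apart in both libraries, where 1.69% of all genes had a promoter 2-fold higher and 2.81% lower.

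**Figure D4:**
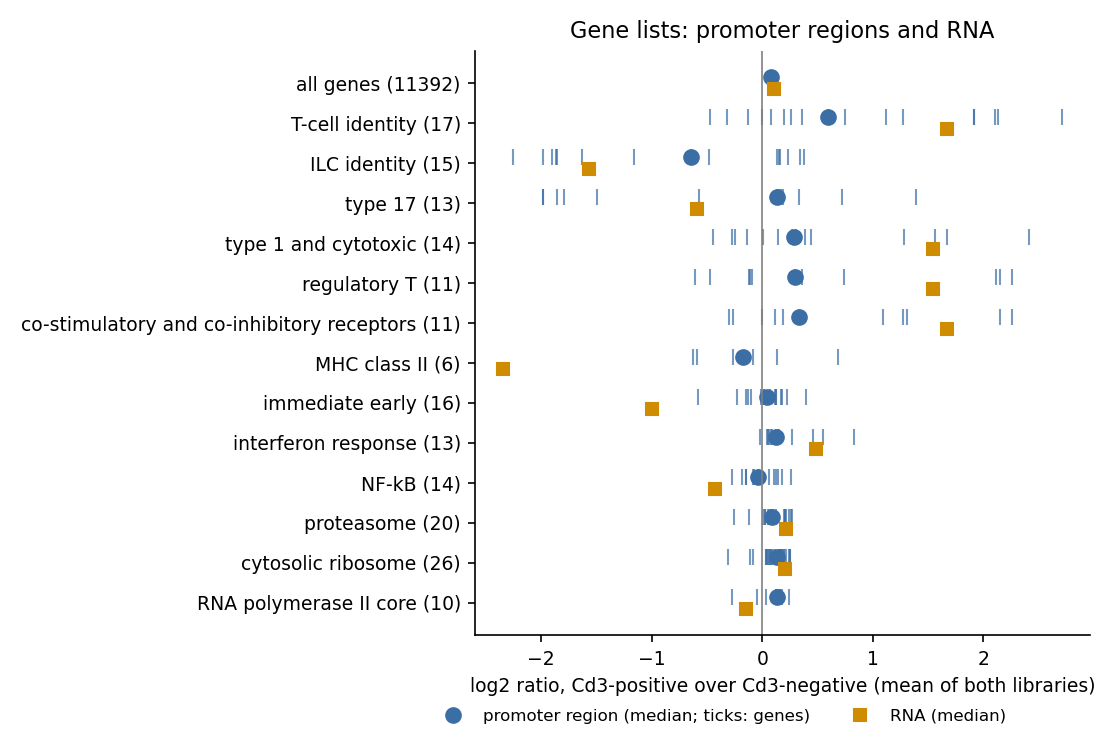
Median log2 ratio of Cd3-positive over Cd3-negative nuclei, as the mean of both libraries, for promoter regions (circles, with a tick for each gene) and RNA (squares) of each gene list; the number of genes with a measured region is in brackets. T cell identity genes lie at 0.59 and 1.67, ILC identity genes at -0.65 and -1.57, and MHC class II and immediate early genes have RNA medians of -2.34 and -0.99 beside promoter medians of -0.18 and 0.04.

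Single pairs of region and gene showed the same separation. Among 3312 pairs whose region ratio was under 0.25 in size in both libraries, the RNA furthest above 0 was that of Prkcq, the theta form of protein kinase C in T cell receptor signalling, Ccl5, a chemokine, and Morrbid, a long non-coding RNA of leukocytes. The Prkcq region (chr2:11171838-11172748) held 17.3 and 19.0 peak CPM in Cd3-positive and Cd3-negative control nuclei and 16.9 and 16.3 in knockout nuclei. Its RNA was 145 and 33.7 CPM in control and 144 and 29.2 CPM in knockout, a ratio of 2.10 (1.79 to 2.43) and 2.28 (1.88 to 2.75). The peak values overlapped between populations while the RNA values were about 4 times apart. Ccl5 had region ratios of 0.06 and -0.05 with RNA at 2.39 and 2.13, and Morrbid 0.15 and -0.05 with RNA at 2.06 and 2.16. At the other end stood H2-Ab1, an MHC class II beta chain, with region ratios of -0.12 and -0.04 and RNA at -2.37 and -2.31, and Nr1d1, a nuclear receptor of the circadian clock, with -0.13 and -0.23 and RNA at -2.34 and -1.92. Gdpd5, a phosphodiesterase gene, had region ratios of 0.01 and 0.10 with RNA at -1.99 and -2.12.

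With 1 region a gene, some pairs went in opposite directions under strict limits. Of 5979 such pairs, 8 had a region higher and RNA lower in Cd3-positive nuclei, and 9 the reverse, where both ratios were over 0.5 in size in both libraries with intervals that left out 0. The number that passed these limits in the same direction is not given here. Among all regions called 2-fold with usable RNA, 40 of 285 higher and 23 of 283 lower ones had RNA opposite in both libraries. The Ednrb region (chr14:103843460-103844365), at the start of the gene of endothelin receptor B, held 8.26 and 21.7 peak CPM in control and 9.21 and 21.5 in knockout, while its RNA was 22.9 and 9.88 CPM in control and 25.6 and 14.0 CPM in knockout. The region ratios were -1.39 (-1.93 to -1.0) and -1.22 (-1.61 to -0.72), and the RNA ratios 1.19 (0.61 to 1.87) and 0.84 (0.23 to 1.57). Its counts were thus lower in Cd3-positive nuclei in both libraries and its UMIs higher. Inpp1, an inositol phosphatase gene, had region ratios of -0.83 and -0.86 with RNA at 0.78 and 1.13. Akap12, a scaffold of protein kinase A, had -0.92 and -0.80 at a region between starts with RNA at 2.45 and 1.72. In the reverse direction, Rbm47, an RNA-binding protein gene, had 1.92 and 2.76 at a region between starts with RNA at -0.52 and -0.59. Ubac2, an endoplasmic reticulum protein gene, had 1.79 and 1.55 with RNA at -0.61 and -0.57, and the transcript A630014C17Rik 1.31 and 1.00 with RNA at -0.52 and -0.92.

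**Figure D5:**
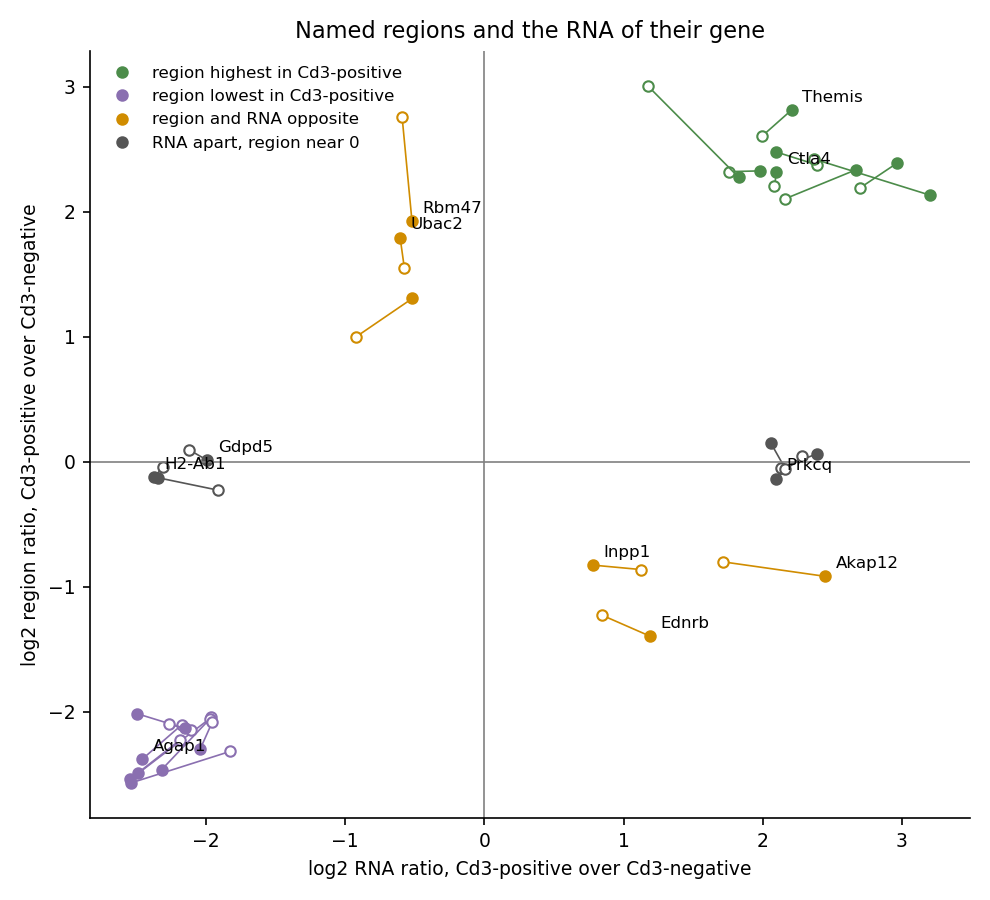
Log2 region ratio against log2 RNA ratio of the nearest gene, both Cd3-positive over Cd3-negative, for the named pairs; filled points are the control library, open points the knockout library, and lines join the values of a pair. The 8 highest and 8 lowest regions lie in the corners where both ratios have the same sign, Rbm47, Ubac2, Ednrb, Inpp1 and Akap12 lie in the opposite corners, and Prkcq, Gdpd5 and H2-Ab1 lie along the line of region ratio 0.

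Some genes had more than one measured promoter region, and these could differ. Over 1236 genes with at least 2 measured regions, the strongest region had a Spearman correlation with the RNA ratio of 0.37 in control and 0.37 in knockout. The region with the second most fragments had 0.45 and 0.41. Of the 1236 genes, 107 (8.66%) had a strongest and a second region 2-fold or more apart in both libraries. The RNA ratio was closer to that of the strongest region in both libraries for 54 of these genes and to that of the second region for 37. Gdpd5 was among the latter: its region with 1260 fragments in the smaller library had ratios of 0.01 and 0.10, while a weaker one at another start (chr7:99385667-99386587), with 100 in the smaller library, had -2.26 (-2.98 to -1.63) and -2.33 (-2.89 to -1.70), near the RNA ratios of -1.99 and -2.12. Fyn, a kinase of T cell receptor signalling, had 0.22 and 0.32 at its strongest region, at a start, and 1.42 and 1.70 at a region between starts, with RNA at 1.67 and 1.44. Bicdl1, a dynein adaptor gene, had 0.14 and 0.16 at its strongest region and 1.33 and 1.52 at its second (chr5:115732132-115733145), with RNA at 1.79 and 2.29. For Lck the strongest region, between starts, had 2.35 and 1.91 and the region at a start (chr4:129558141-129559073) 1.16 and 0.30, with RNA at 2.17 and 1.74. Mitf, a transcription factor, had -0.14 and 0.11 at its strongest region and -2.27 and -1.96 at one between starts, with RNA at -2.0 and -1.45. A second region could also go against the RNA. Diaph3, a formin gene, had 0.49 and 0.55 at its strongest region and -2.60 and -2.15 at one between starts, with RNA at 2.07 and 1.99. Grap2, an adaptor gene of T cell receptor signalling, had 1.08 and 0.84 at its strongest region and -1.55 and -1.27 at one between starts, with RNA at 1.57 and 1.51. These examples were chosen after their values were seen.

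Between the libraries the promoter regions differed far less than between the populations. The region of the targeted gene Zfp362 with the most fragments, at a start (chr4:128805728-128806628) held 31.1 and 30.7 peak CPM in control and knockout Cd3-positive nuclei, a log2 ratio of -0.01 (-0.26 to 0.21). A weaker region 266 bases from a start (chr4:128793576-128794622) held 3.42 and 1.99 peak CPM, a ratio of -0.78 (-1.64 to 0.04), and in Cd3-negative nuclei 5.47 and 1.70, a ratio of -1.64 (-3.06 to -0.37). The RNA of Zfp362 rested on 54 and 48 UMIs in Cd3-positive and 21 and 6 UMIs in Cd3-negative nuclei, with ratios of -0.26 (-0.85 to 0.33) and -0.99 (-2.67 to 0.28). These sums count reads over the whole gene and do not check the deleted part by itself.

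In Cd3-positive nuclei 21 of 16235 promoter regions were 2-fold or more higher in the knockout library and 7 were lower, where 0.155% and 0.0704% of all 35494 measured shared regions were. Peaks were called separately in each library, and counts were summed over each library's own peaks. Peak widths in the libraries were within 1.5 times of each other for 15 of the 21 higher regions and for all 7 lower ones. In the control library, 15 of the 21 and 1 of the 7 had lower peak CPM in Cd3-positive than in Cd3-negative nuclei. The median control population ratio of all measured promoter regions was 0.07. The library ratio and this population ratio both use the control Cd3-positive counts. Choosing regions by the first therefore shifts the second, so no conclusion is drawn from these counts. Without the nuclei of over 2 times the median UMIs, 5 regions were higher and 4 lower. The part of the mix of nuclei in these calls was not tested. In Cd3-negative nuclei none of 12503 promoter regions was higher in the knockout library and 1 was lower, against 0.0293% and 0.0293% of 20497 shared regions. The 1 lower region lay between starts of Sla, an adaptor gene (-1.07, -1.70 to -0.41), and is named here because it was the only one. In the middle 80% of the regions the ratio ran from -0.22 to 0.24 in Cd3-positive and from -0.25 to 0.23 in Cd3-negative nuclei. The library ratios of the populations had a Spearman correlation of 0.12 across 12252 regions. Region and RNA library ratios had a Spearman correlation of 0.10 over 10616 regions in Cd3-positive nuclei and of 0.02 over 6292 in Cd3-negative nuclei. Few genes had RNA far apart between the libraries: RNA ratios of 1 to 2 occurred for 27 regions in Cd3-positive nuclei, with a median region ratio of 0.20. All 28 regions past 2-fold in Cd3-positive nuclei had intervals that left out 0. They had been chosen by the size of this ratio and a minimum of fragments. That outcome thus follows largely from the choice and lends no further support to these regions. Of the 12 higher ones with enough UMIs, 11 had higher RNA in the knockout library, and of the 6 such lower ones 1 had lower RNA. Most regions of either direction thus had higher RNA in the knockout library, so these counts show no following of the region by the RNA.

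The Cd4 region (chr6:124887804-124888709), at the start of the co-receptor gene, was the highest, with 9.17 peak CPM in control and 49.9 in knockout Cd3-positive nuclei and 5.23 and 18.4 in Cd3-negative nuclei. Its knockout over control ratios were 2.44 (1.98 to 2.68) and 1.80 (1.12 to 2.54), with RNA ratios of 1.43 and 0.38. The knockout mice alone carry the CD4cre transgene, and reads from it cannot be told apart here from those of the gene. Among genes with at least 100 UMIs, each represented by its region with the most fragments, and with peak widths within 1.5 times of each other in the libraries, the next highest reported in Cd3-positive nuclei were D030028A08Rik between starts (1.06, 0.48 to 1.74), Gm42031 (1.06, 0.43 to 1.67) and Plxdc2, a membrane protein gene (0.99, 0.29 to 1.48). Gm42031 had an RNA ratio of 1.01 in Cd3-positive and 0.82 in Cd3-negative nuclei, while its region ratio was 0.11 in Cd3-negative nuclei.

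In the same ranking the 5 lowest did not reach 2-fold. They were Dnase1l3, a DNase gene (-0.75, -1.17 to -0.33), Slfn1, a schlafen gene (-0.71, -1.06 to -0.34), Gpr171, a G protein-coupled receptor (-0.69, -0.90 to -0.30), Sh3gl3, an endophilin (-0.68, -1.21 to -0.14), and Hdgfl3 (-0.66, -0.91 to -0.04). The Slfn1 region held 18.1 peak CPM in control and 11.1 in knockout Cd3-positive nuclei, with RNA at 17.2 and 10.6 CPM, a ratio of -0.69 (-1.17 to -0.23). Sh3gl3 had an RNA ratio of -0.73 and Hdgfl3 of 0.08 in the same nuclei. In Cd3-negative nuclei the intervals of all 5 region ratios included 0. The ranking leaves out weaker regions of the same gene, some of which were further apart: Xkr6 (1.26, 0.66 to 1.97), Plekhg1 (1.14, 0.48 to 1.67) and Mef2c (1.12, 0.45 to 1.76) had such a region on the higher side, and Ksr1 (-1.17, -1.70 to -0.48) and Olfr56 (-1.11, -1.66 to -0.62) on the lower side. They were named after their values were seen. Beside these values, the T cell markers of Cd3-positive nuclei summed to 5664 CPM in control and 4964 CPM in knockout, and the part of this difference in the ratios was not tested.

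Between the libraries, the RNA medians furthest from 0 were those of the cytosolic ribosome and MHC class II lists. The 26 cytosolic ribosome genes had a median RNA ratio of -0.53 in Cd3-positive nuclei, where the median of all genes was 0.00, and a median promoter ratio of -0.03. Rps6, a small subunit protein, held 71.3 and 60.6 peak CPM in control and knockout (-0.24) with RNA at -0.54, and Rpl23, a large subunit protein, had -0.09 with RNA at -0.61. The MHC class II genes had a median RNA ratio of 0.47 over 5 genes and a median promoter ratio of 0.03 over 6. Regulatory T cell genes had medians of -0.18 for the promoter and -0.32 for the RNA, and co-stimulatory and co-inhibitory receptors -0.30 and -0.18. Proteasome and RNA polymerase II core genes had promoter medians of 0.02 and 0.02 with RNA at -0.25 and -0.25. Type 17 genes had medians of 0.03 and 0.21, NF-kB genes -0.03 and 0.16 and immediate early genes 0.02 and 0.13. T cell and ILC identity genes had promoter medians of -0.01 and 0.03 with RNA at -0.10 and 0.07.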

How the data were processed

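Joint RNA and accessibility libraries of sorted intestinal effector CD4 T cell nuclei, 1 per genotype, were analysed from the deposited matrices. These hold whole-number counts of UMIs per gene and of transposase cut sites per peak, made by the authors with Cell Ranger ARC (the file headers give version 2.0.1) on mm10 per the submitters' processing notes. Both ends of a fragment are usually counted: 91.7% of control and 90.7% of knockout peak values above 0 were even, so fragments were taken as the count divided by 2, rounded up. The sources used here give no further steps. Gene and peak coordinates are those of the deposited feature tables, per the file headers; 13 genes have none there.

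Nuclei had at least 1000 UMIs, 300 genes and at most 10% mitochondrial UMIs. No doublet caller was run; leaving out nuclei of over 2 times the median UMIs stood in as an alternative. Overlapping peaks of the libraries (1 base or more) were joined into regions, each assigned to the nearest gene interval within 1 kb. Counts were summed per library and population, divided by the counts in all shared regions (RNA: by all UMIs), and compared as log2 ratios with a pseudocount of 0.5 counts. Intervals are exact binomial (Clopper-Pearson) intervals at 95% on fragments or UMIs. Regions and genes needed 100 fragments or UMIs. No test was run, since each genotype has 1 library; correlations describe regions, which share nuclei and depth. The ratio script was tested on simulated data. Tools were numpy 2.4.6, scipy 1.17.1, pandas 2.3.3, igraph 0.11.9, leidenalg 0.10.2 and matplotlib 3.10.9.

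Named pairs, 1 region a gene, were the 8 highest and 8 lowest population ratios by the smaller of both libraries' values, up to 3 a side with region and RNA opposite, the 5 highest and 5 lowest library ratios, the 3 highest and 3 lowest RNA ratios with region ratios under 0.25, and members of the gene lists; 1 pair of the library ratios is not reported here. Cd3d, Cd3e, Cd3g, Trac, Zfp362, segments of antigen receptors and genes on sex chromosomes or mitochondria were outside these rankings. The members and lists were chosen with earlier results of these data known. Alternatives changed the split of the nuclei, the depth limits, the unit, the overlap, the distance, the number of nearby genes, the minimum and the scaling. Clusters were the Leiden clusters of the RNA of both libraries, split by their Cd3 and ILC marker levels with a limit set after the clusters were seen.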

Additional observations from a re-analysis of the deposited data

How the results depend on the processing

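The gap in promoter share between populations, 1.69 points in control and 1.71 in knockout, stayed positive under every alternative. In control and knockout it was 1.33 and 1.33 where Trac was ignored in choosing Cd3-negative nuclei, 1.95 and 2.06 where Trbc1 and Trbc2 were also required to be absent, 2.70 and 2.30 at 2000 UMIs per nucleus, 2.19 and 2.12 without nuclei of over 2 times the median UMIs, 2.80 and 2.49 with clusters, 1.60 and 1.59 on fragments, 1.82 and 1.83 for regions within 1 kb of an annotated start, and, in control, 1.82 with 1 Cd3 UMI as the limit. The count of regions 2-fold higher in Cd3-positive nuclei, 426, was 244 with Trac ignored, and the counts higher and lower (426 and 554) were 279 and 268 at 2000 UMIs, 110 and 318 without the deep nuclei, 724 and 834 with clusters, 1215 and 1784 at a minimum of 20 fragments, and 11 and 5 at 500. For regions within 1 kb of an annotated start 228 were higher. The counts past 2-fold between libraries in Cd3-positive nuclei, 21 and 7, were 280 and 94 at a minimum of 20, 5 and 4 without the deep nuclei, and 1 and 0 at 500, with 12 higher at 2000 UMIs and 2 lower near annotated starts. In Cd3-negative nuclei, 0 higher and 1 lower became 232 and 193 at a minimum of 20, 1 and 3 without Trbc1 and Trbc2, 1 and 2 at 2000 UMIs and 1 and 4 with clusters. There 5 were higher with Trac ignored, and 4 were lower without the deep nuclei, 3 on fragments, 3 at an overlap of 50%, 0 near annotated starts and 0 at 500. The correlations of region with RNA population ratio moved by more than 0.1 only at the minimum of 500, to 0.18 in control and 0.17 in knockout. The median region ratios of genes with RNA 2-fold higher or lower, 0.47 and -0.64, were 0.22 and -0.38 without the deep nuclei and 0.15 and -0.071 at 500. The T cell identity median, 0.59, was 0.27 without the deep nuclei and 0.91 with clusters, and the ILC identity median, -0.65, was -1.16 at a distance of 100 bases and -0.93 at a minimum of 20. The type 1 and cytotoxic median turned to -0.13 without the deep nuclei, and the regulatory T median to -0.067 at 2000 UMIs and to -0.10 without the deep nuclei. Of 715 recomputed values of named regions, 665 stayed within the interval of the value reported, 50 moved outside it and 0 of those called changed sign. The cause of these shifts was not tested, except that other minimums and depth limits change how many regions and nuclei are counted. The minimum of 500 and the limit to annotated starts were chosen after seeing the data. No paired analysis was possible because each genotype has 1 library, and no replicate could be left out for the same reason. Depth limits these results to regions of at least 100 fragments: 8236 of the 22581 regions were under this minimum and are left out of the counts.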
